A study of Mus musculus with 2 samples.

Results

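Immature granule-rich neutrophils were defined here as single cells of the mouse colon that carried transcripts of the neutrophil granule proteins Ngp, Camp and Ltf together with S100a8. A cell was a member if it held at least 3 UMIs of Ngp, at least 1 UMI of Camp and Ltf together, and at least 3 UMIs of S100a8. It also had to hold 0 UMIs of the macrophage genes C1qa, C1qb and C1qc, of the T cell gene Cd3e and of the B cell gene Cd79a. A UMI is a molecular barcode that counts each captured RNA molecule a single time. Of 20052 cells that passed the filter on cell quality, 105 met these limits. The members were thus chosen by their own UMIs of these genes. In the library labelled Runx3 there were 104 such cells and in the library labelled Runx3_fl there was 1. They were compared with 353 and 475 mature neutrophils of the same libraries, which were cells with at least 1 UMI of Csf3r, the receptor for granulocyte colony-stimulating factor, at least 1 UMI of the chemokine receptor gene Cxcr2, and at most 2 UMIs of Ngp.

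The cells were taken from the lamina propria, the layer beneath the lining of the gut, and the labels give them as CD11b-positive, for the surface protein that Itgam encodes. The study bred mice in which both Runx3 alleles were floxed (RUNX3 fl/fl) and Cre was driven by Lyz2, a promoter active in macrophages, monocytes and neutrophils, and set them against RUNX3 fl/fl littermates without Cre. The mice were described as 8-week-old males, and animals were pooled before each library was made. In the library labelled Runx3_fl, however, the X-linked transcript Xist had UMIs in 30.6% of the kept cells outside both neutrophil classes. There was 1 library per group, titled Runx3_fl and Runx3, and since the titles do not mention Cre, the genotype behind each is unknown here and the title is used in its place. With 1 library per group and pooled animals there was no replicate, so no test was made and no p-value is given. Intervals are exact 95% intervals that cover counting error only, and library, animal pool and genotype cannot be told apart.

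Neutrophils mature in the bone marrow from promyelocytes through myelocytes and metamyelocytes to band and segmented cells. Granule proteins are made in waves along this path, with primary (azurophil) granules first, secondary (specific) granules next and tertiary (gelatinase) granules last. Division stops at about the stage when secondary granule proteins are made, and receptors for chemokines and bacterial peptides appear late. Circulating neutrophils have largely stopped transcribing Ngp, Camp and Ltf, so cells rich in these transcripts are usually found in marrow.

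The promoters of the granule genes that led the rule, and that of the primary granule protease Elane, are shown because the levels of these genes are followed across groups of members below. Ngp, which encodes a cathelicidin-like granule protein, lies on chromosome 9 from 110419747 to 110423012. Camp, the cathelicidin antimicrobial peptide, lies on the same chromosome from 109847379 to 109849617, and Ltf, the iron-binding lactotransferrin, from 111019271 to 111042767. Elane, the neutrophil elastase gene, lies on chromosome 10 from 79886247 to 79888215. Gene coordinates are those of GENCODE M21 on GRCm38, and the promoter sequences are from RefSeq on GRCm38.p6. Each is the stretch before the first annotated exon, written 5′ to 3′ on the strand of the gene, and capitals mark matches to TTNNGNAA on either strand, a spelling of the site bound by C/EBP factors.
Ngp, chr9:110419558-110419746, plus strand: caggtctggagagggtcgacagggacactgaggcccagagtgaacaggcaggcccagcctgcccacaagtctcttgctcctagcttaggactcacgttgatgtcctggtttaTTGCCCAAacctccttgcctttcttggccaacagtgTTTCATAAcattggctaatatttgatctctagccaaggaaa
Camp, chr9:109849618-109849706, minus strand: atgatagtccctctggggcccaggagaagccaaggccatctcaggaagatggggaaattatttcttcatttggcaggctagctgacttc
Ltf, chr9:111019042-111019270, plus strand: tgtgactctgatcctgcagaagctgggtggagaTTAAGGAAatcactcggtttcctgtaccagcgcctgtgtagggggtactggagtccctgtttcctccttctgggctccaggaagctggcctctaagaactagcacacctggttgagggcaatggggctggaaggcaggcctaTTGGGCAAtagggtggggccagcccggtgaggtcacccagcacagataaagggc
Elane, chr10:79886062-79886246, plus strand: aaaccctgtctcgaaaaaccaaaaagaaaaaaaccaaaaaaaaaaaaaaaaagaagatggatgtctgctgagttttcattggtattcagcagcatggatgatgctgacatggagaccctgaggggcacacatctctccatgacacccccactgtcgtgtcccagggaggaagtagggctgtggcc
The printed Ngp and Ltf stretches held 2 matches each, and those of Camp and Elane held 0. The Ngp matches began 138 and 102 bases before the RefSeq start site, and another match, 11 bases before that site, lay inside the first exon of another annotated transcript and is not printed. In the 250 bases before the start site, TTNNGNAA was found in 36.8% of 32851 promoters, in 11 of 16 secondary granule genes and in 1 of 7 primary granule genes. The letters GAGGAA, a spelling of the site bound by PU.1, were found on either strand in 23.3% of all promoters, in 8 of 16 secondary and in 6 of 7 primary granule genes. The share of all promoters counts each promoter, while a list gene was counted if any of its promoters matched, so the measures differ. Both spellings are short, so these matches describe the letters and not bound sites.

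Ngp was spread over a far wider range in the library labelled Runx3 than in the other. It was at 0 UMIs in 6236 of its kept cells, at 1 UMI in 1480 and at 2 in 232, while 77 cells held 3 to 9 UMIs, 43 held 10 to 99 and 99 held 100 or more. In the library labelled Runx3_fl, 11862 cells held 0 Ngp UMIs, 22 held 1 and a single cell held more. The plot of Ngp against depth shows that most cells with 3 or more Ngp UMIs held far more than the limit. Just outside the limit, 17 cells met every other condition with 2 Ngp UMIs, and they held a median of 2631 UMIs in all and 3 to 116 UMIs of S100a8. Just inside it, 4 members held 3 Ngp UMIs with 3 to 11 UMIs of S100a8, and 1 held 4 Ngp UMIs with 815 of S100a8. Only 10 of the 104 members held under 10 Ngp UMIs.

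**Figure D1:**
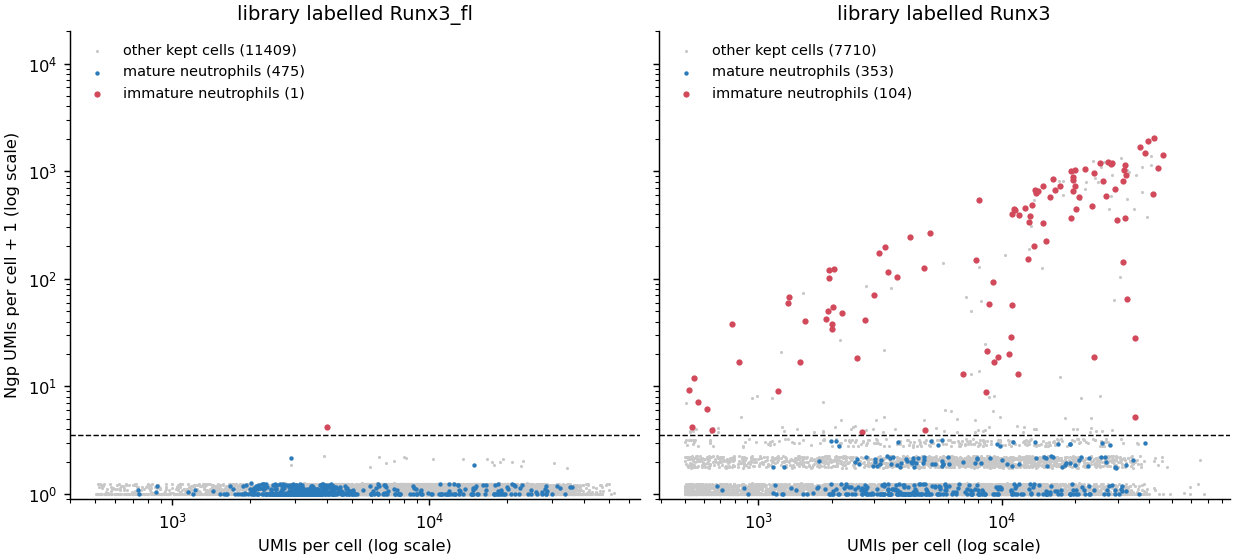
Ngp UMIs plus 1 (vertical, log scale, with a small random vertical spread so that points do not overlap) against total UMIs per cell (horizontal, log scale) for the kept cells of each library, with the limit of 3 UMIs as a dashed line. In the library labelled Runx3 the members spread far above the mass of cells at 0 to 2 UMIs, and in the library labelled Runx3_fl 1 cell lies above the line.

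UMIs of these genes were also found in other cells of the library labelled Runx3. Whether they came from free RNA or from droplets with more than 1 cell was not tested. B cells, which do not make Ngp, held at least 1 Ngp UMI in 19.5% of 1209 cells at a median depth of 7450 UMIs, against 0.840% of 357 B cells in the library labelled Runx3_fl at a median of 20763 UMIs. At least 3 Ngp UMIs were found in 0.165% of the B cells of the library labelled Runx3. These were 2 cells, which held 1575 of the 1832 Ngp UMIs of all 1209 B cells. S100a8 had at least 3 UMIs in 7.94% of the 1209, so the limit on S100a8 alone did not separate members from B cells. Mature neutrophils of the library labelled Runx3 held an Ngp UMI in 25.2% of cells at a median of 5120 UMIs, a share in which free RNA and transcription cannot be told apart. Per UMI of Ngp, B cells with at most 2 Ngp UMIs held 0.903 of Camp, 4.86 of S100a8 and 1.35 of Chil3, and members with 10 or more Ngp UMIs held 0.776, 3.98 and 0.149. Of the 10 members with fewer Ngp UMIs, 2 held 612 and 815 UMIs of S100a8. The other 8 each held under 100 UMIs of S100a8, at a median of 629.5 UMIs in all. Per Ngp UMI they held 2.74 UMIs of S100a8 (interval 1.89 to 4.07), 0.641 of Camp (0.372 to 1.09) and 0.0769 of Chil3 (0.0152 to 0.242). All of these sets were cut on Ngp itself and the 8 cells also on S100a8, and the rule set limits on Camp and S100a8. These ratios therefore cannot place the 8 cells with either the B cells or the other members. Whether these 8 were neutrophils or droplets with free RNA was not tested.

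The limits of 0 UMIs on C1q, Cd3e and Cd79a also removed cells rich in Ngp. Of 142 cells with 10 or more Ngp UMIs, 94 were members and 48 were not. Among those 48, 40 held C1q UMIs, of which 35 held only 1 or 2, and C1qa was found in 22.7% of mature neutrophils and 16.5% of B cells of the same library. The 48 cells had Ngp at 25413 CPM (the gene's share of all UMIs summed over the cells, scaled to 1000000), Camp at 20664 CPM and Ltf at 7417 CPM, against 29445, 22863 and 9018 CPM in the 94 members, and both sets were picked for Ngp. Outside the rule, Retnlg was at 3207 CPM against 6561 CPM in the members, and Cd74, a gene of antigen-presenting cells, at 954 against 493 CPM. With up to 2 UMIs of each of the 3 lineages allowed, an alternative chosen after the data were seen, 157 cells qualified. No doublet caller was run, and the limits of 0 UMIs and the upper limit on genes were the treatment of doublets. The libraries shared 37 barcodes among all deposited cells. A member was at 1 of these, with 960 Ngp UMIs in the library labelled Runx3 and 0 in the cell of that barcode in the other library.

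Immature neutrophils made up 1.27% of the 8167 kept cells of the library labelled Runx3 (interval 1.04% to 1.54%) and 0.00841% of the 11885 kept cells of the library labelled Runx3_fl (0.000213% to 0.0469%). Cells of the mature class, set by Csf3r, Cxcr2 and Ngp alone, were at close shares in both, 4.32% (3.89% to 4.79%) and 3.997% (3.65% to 4.36%). In the same order, at least 3 UMIs of S100a8 were found in 75.6% and 73.3% of them. Retnlg had a UMI in 47.6% and 40.2%, and Ly6g in 5.95% and 2.53%. Whether all of these cells were neutrophils was not tested, so the shares are those of the class. Members were therefore 22.8% of the 457 cells of both classes in the library labelled Runx3 (19.0% to 26.9%). In the library labelled Runx3_fl they were 0.210% of 476 (0.00532% to 1.16%). The intervals of the member shares did not overlap, and they do not cover differences between animals, dissections or sorts. Cells were deeper in the library labelled Runx3_fl, with a median of 9573 UMIs per kept cell against 5731, so the library with fewer members was the deeper. The deposited totals were 146204416 and 75478164 UMIs.

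The only member of the library labelled Runx3_fl met the rule narrowly. It held 3 UMIs of Ngp, 1 of Ltf and 0 of Camp and Lcn2 in 3995 UMIs. It also held 247 UMIs of S100a8 and 13 of Retnlg. It met neither an Ngp limit of 5 UMIs nor an Ngp share of 1 in 1000 UMIs. The descriptions that follow therefore rest on the 104 members of the library labelled Runx3 alone.

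These 104 cells spanned a wide range of depth. They held 519 UMIs at the lowest, a median of 12639 and 45754 at the highest, and 360 to 5840 genes with a median of 2701. Mitochondrial genes made up a median of 1.02% of UMIs, with a highest value of 7.48%. Mature neutrophils of the same library held a median of 5120 UMIs and 1625 genes. Itgam, which encodes CD11b, was detected in 89.4% of members, and Ly6g, a surface protein of mouse neutrophils, in 70.2%. Both surface protein genes were thus detected in most members.

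The genes of the rule took a median of 16.6% of the UMIs of a member, from 0.227% to 28.2%. Ngp held from 3 to 2053 UMIs per cell with a median of 233, and made up 0.0114% to 6.66% of a cell's UMIs with a median of 2.59%. Camp held 0 to 2173 UMIs with a median of 164.5, and Ltf held 0 to 512 with a median of 63. S100a8, a subunit of the calcium-binding protein calprotectin, held 3 to 7049 with a median of 1276. All of these chose the cells, so their height is no finding. Among genes outside the rule, S100a9, the other calprotectin subunit, was found in 104 of 104 members with a median of 1095 UMIs. Lcn2, an iron-scavenging lipocalin of secondary granules named as a marker of these cells but not used in the rule, was found in 102 members with a median of 121.5 and a highest value of 795. Chil3, a chitinase-like protein of myelocytes, was found in 94 members with a median of 15.5 and a highest value of 378.

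Summed over cells, members and mature neutrophils differed across much of the transcriptome. Among 3871 genes at 50 CPM or more and in at least 10% of cells of either class, 603 (15.6%) were higher and 1283 (33.1%) were lower in members by a log2 ratio of at least 1, computed on CPM plus 1. The median gene had a log2 ratio of -0.37. Counts of list genes given below are to be read against these shares of 15.6% and 33.1% over all genes. The share of higher genes among those apart was 32.0%. It became 46.7% with the median gene set to 0, and 49.9% with the rule genes, S100a9, Lcn2 and haemoglobin genes taken out of the totals. Values against the mature neutrophils of the library labelled Runx3_fl are given below where they change a call. They use the same 104 members, so they are no independent check. Because the rule defined both classes, all ratios below describe the classes and test nothing. They are given with the counting interval of the UMI ratio.

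Primary granule genes were high in members but came from few cells. Of 5 list genes that passed the filter, 4 were higher and 1 was lower, with a median log2 ratio of 6.65. Elane stood at 923 CPM against 4.28 CPM in mature neutrophils, a log2 ratio of 7.45 (6.98 to 8.67), yet 16 of 104 members held any and 5 cells held 94.9% of its UMIs. Mpo, the myeloperoxidase that makes hypochlorous acid, was at 676 against 5.26 CPM (log2 ratio 6.76), with 96.4% of its UMIs in 5 cells. Prtn3, proteinase 3, was at 692 against 14.5 CPM (5.49), and Ms4a3, a membrane protein of granulocyte and monocyte progenitors, at 166 against 0.658 CPM (6.65, interval 6.11 to 11.03). Ctsg, cathepsin G, fell short of the filter with UMIs in 9 members, and was at least 145-fold higher than in mature neutrophils, where it was at 0 and a floor of 3 UMIs per class was used. Ctsc, the dipeptidyl peptidase that activates these proteases, went the other way, at 57.7 against 335 CPM (-2.52). The list's median was 1.42 and Elane's log2 ratio 0.62 when cells with 2 or more UMIs in further lineage genes, among them Nkg7, were left out. Nkg7, a granule membrane gene best known from NK cells, was detected in 11 of the 13 cells richest in primary granule transcripts, and 6 of those 13 remained.

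Secondary granule genes were higher in members, and the share of members that held them ran from 100% for Ngp, which the rule required, to 37.5% for Orm1 among those that passed the filter. Of 17 that passed the filter 16 were higher and 0 lower, and 13 of 14 were higher once the rule genes were taken out, with a median log2 ratio of 2.95. Lcn2 stood at 12090.6 against 236 CPM (log2 ratio 5.67, interval 5.57 to 5.79). Cd177, a glycoprotein of the neutrophil surface and of secondary granules, was at 1216 against 13.8 CPM (6.36, interval 6.02 to 6.94) and present in 85.6% of members. Chil3 was at 4242 against 207 CPM (4.35) and Pglyrp1, a peptidoglycan-binding bactericidal protein, at 2422 against 174 CPM (3.79). Fcnb, a ficolin of early myeloid cells, was at 354 against 1.64 CPM (7.07, interval 6.52 to 9.38) and present in 44.2% of members. Orm1, the acute-phase protein orosomucoid, was at 88.8 against 0.329 CPM (6.08), a single UMI in mature neutrophils with an interval from 5.57 to 13.4. Cyba, the small subunit of the oxidase membrane core, was the exception with a log2 ratio of 0.83. Stfa and other near-identical gene copies in the lists below may share reads, so their split between copies is uncertain.

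Tertiary granule genes gave a mixed picture. Of 9 that passed, 3 were higher, 1 was lower and 5 were between the limits, with a median log2 ratio of 0.58. The 3 were the matrix proteases Mmp8 (1152 against 119 CPM, log2 ratio 3.26), Mmp25 (2.55) and Mmp9 (1464 against 275 CPM, 2.41). Slpi, an inhibitor of leukocyte proteases, was lower at 568 against 1179 CPM (-1.05). With the median gene set to 0, 4 were higher and 0 lower, so the call on Slpi was lost. Calprotectin and its companion transcripts were mostly higher, 12 of 14, and 11 of 13 without S100a8. Among them were S100a9 (97280.5 against 6314 CPM, 3.95), the annexin gene Anxa1 (4.81), the whey acidic protein family gene Wfdc21 (4.70) and the protease inhibitor gene Serpinb1a (5.38), while Wfdc17 was lower (-1.64).

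Genes with the largest ratios that no list held included Aff2 at 255 against 0.658 CPM (log2 ratio 7.27, interval 6.73 to 11.6), Itgb2l, an integrin beta subunit gene of neutrophils, at 246 against 1.64 CPM (6.55), and Abca13, a lipid transporter gene, at 561 against 5.26 CPM (6.49). Itgb2l was found in 69.2% and Abca13 in 75% of members. Both were thus spread over most members, as Cd177 was, and unlike Elane.

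**Figure D2:**
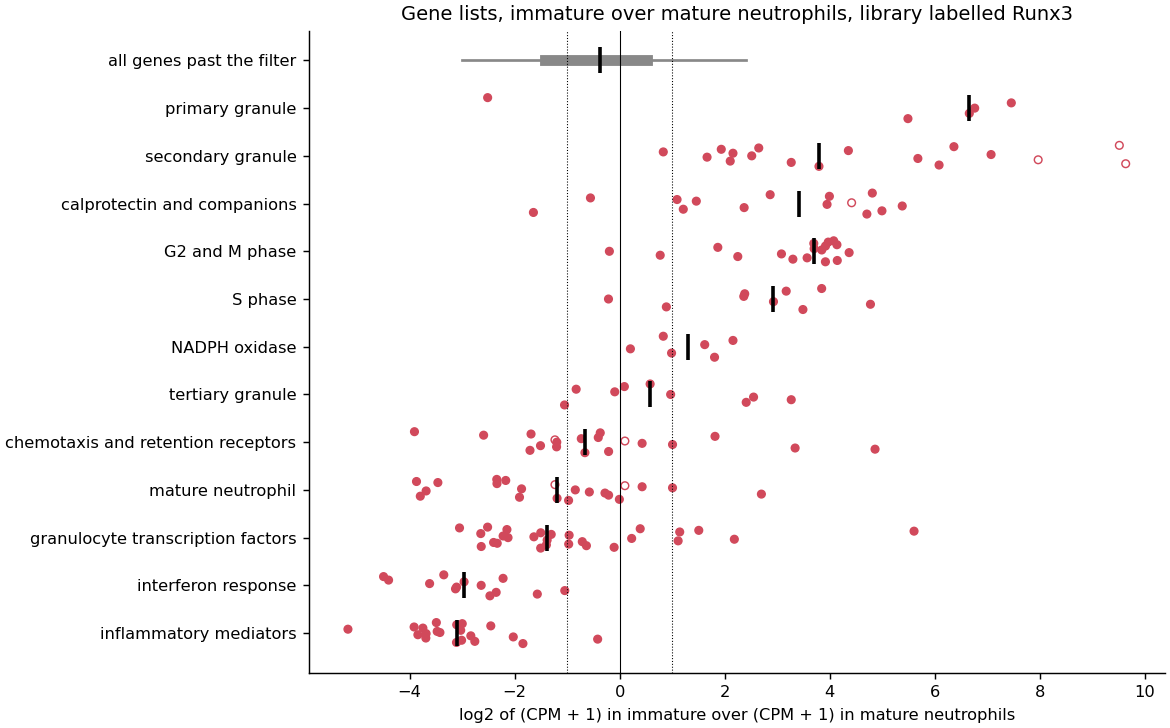
Log2 ratio of immature over mature neutrophils (horizontal, on CPM plus 1) for each gene of each list in the library labelled Runx3, with open circles for genes of the rule, black ticks for list medians, dotted lines at -1 and 1, and grey bands for the quartiles and the 5% to 95% range of all genes. Granule and cell division lists lie to the right, with a median of 3.79 for secondary granule genes, and inflammatory and interferon lists to the left, with medians of -3.11 and -2.96.

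Of 6 genes of the oxidase that makes superoxide in neutrophils, 3 were higher in members and 0 lower, and 5 were higher with the median gene set to 0. Cybb, the catalytic subunit, stood at 1951 against 437 CPM (log2 ratio 2.15), Rac2, its small GTPase, at 833 against 238 CPM (1.80) and Ncf1, the organizer subunit, at 830 against 270 CPM (1.62).

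The summed levels of cell division genes were higher in members. In the S phase list 7 of 9 genes that passed were higher and 0 lower, with a median log2 ratio of 2.93, and in the G2 and M phase list 15 of 17 were higher and 0 lower, with a median of 3.70. Mki67, which marks dividing cells, stood at 398 against 83.2 CPM (2.25) and Top2a, a topoisomerase needed to separate chromosomes, at 312 against 30.9 CPM (3.30). Rrm2, a subunit of ribonucleotide reductase, was at 134 against 3.95 CPM (4.77), and Birc5, the survivin gene, at 115 against 5.92 CPM (4.07). Pcna, the DNA polymerase clamp, was at 227 against 263 CPM (-0.22) and Cks2, a regulator of cyclin-dependent kinases, at 233 against 267 CPM (-0.20). With every cell thinned to 2000 UMIs and 18 members and 24 mature cells left out as shallower, Mki67 was found in 29.1% of 86 members (interval 19.8% to 39.9%), 8.21% of 329 mature neutrophils and 1.74% of 1204 B cells, against 41.3%, 22.4% and 9.59% without thinning. The share with any UMI of the G2 and M phase list was 54.7% in thinned members, 52.3% in thinned mature cells and 37.5% in thinned B cells, and the intervals of members and mature cells overlapped. The share with any UMI of the S phase list was 48.8%, 52.9% and 66.9%, again with overlap of members and mature cells. The summed levels of these lists were thus higher in members, and the shares of cells with any such UMI were not.

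Receptors of mature neutrophils went in both directions. Cxcr2 was at 340 CPM in members and 317 CPM in mature neutrophils (log2 ratio 0.10, interval -0.06 to 0.25), although the mature cells were picked for having it and the members were not. Csf3r, by which the mature cells were also picked, was at 281 against 663 CPM (-1.23). Ltb4r1, the leukotriene B4 receptor gene, was higher at 262 against 25 CPM (3.34), as was Ly6g at 496 against 16.1 CPM (4.86) and Cd63, a granule membrane tetraspanin gene, at 321 against 90.8 CPM (1.81). Cxcr4, which holds neutrophils in the marrow, was at 158 against 364 CPM (-1.20, within the limit with the median gene set to 0), and the chemokine receptor genes Ccr1 (-1.69) and Ccr2 (-2.59) were lower. In the receptor list without Csf3r and Cxcr2, 4 of 17 genes were higher and 7 lower, where 15.6% and 33.1% of all 3871 genes were. These counts are near those shares and are no result about receptors. With the median gene set to 0, 5 of all 19 were lower. Retnlg, a resistin-like gene of late neutrophils, was higher in members at 6727 against 1038 CPM (2.70), and was 1 of 2 genes of the mature neutrophil list that were higher, with Fpr2, a formyl peptide receptor gene (1.00), while 10 of its 19 genes outside the rule were lower. The summed Retnlg and Cxcr2 of members came largely from a part of them, the tertiary-granule group defined below. Retnlg had a median of 4.5 UMIs per member, with quartiles of 0.75 and 174.5.

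Inflammatory mediator and interferon response genes were lower in members than in the mature class, whose cells were not all shown to be neutrophils. That class also held dendritic cell markers at 5657 CPM, against 669 CPM in members. Which of its cells held the mediator transcripts was not tested. Of 20 inflammatory mediators that passed, 0 were higher and 19 lower, with a median log2 ratio of -3.11. Il1b, the interleukin-1 beta gene, was at 255 against 3300.0 CPM (-3.69, interval -3.84 to -3.55), Cxcl2, a neutrophil-attracting chemokine gene, at 752 against 10120.4 CPM (-3.75), and Nlrp3, an inflammasome sensor gene, at 141 against 1838 CPM (-3.69). Osm, the oncostatin M gene, was the exception at 201 against 269 CPM (-0.42). All 13 interferon response genes that passed were lower (12 with the median gene set to 0), with a median of -2.96, among them Isg15 (91.4 against 1135 CPM, -3.62), Rsad2 (81.6 against 721 CPM, -3.13) and Ifit1 (7.13 against 183 CPM, -4.50). Slfn4 was the least of these at 268 against 554 CPM (-1.05), and against the mature neutrophils of the library labelled Runx3_fl, at 300 CPM, its log2 ratio was -0.16. The lowest ratios of genes that no list held were those of Tll2 (-5.97, interval -12.6 to -4.81), Enthd1 (-5.68) and Il23a, the interleukin-23 subunit gene (-5.40), which had 1, 3 and 3 UMIs in members.

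Transcription factors of granulocytes mostly had lower levels in members, 15 of 27 against 5 higher. Cebpe, the factor of the secondary granule program, stood apart at 335 against 5.92 CPM (log2 ratio 5.601, interval 5.15 to 6.59), with UMIs in 73 of 104 members. Klf5 (2.18), Cebpd (1.503) and Lmo4 (1.11) were also higher, as was Ets1 (1.14), whose ratio was -0.04 against the mature neutrophils of the library labelled Runx3_fl. Spi1, which encodes PU.1, was at 361 against 389 CPM (-0.11). Among the lower genes were Junb, an immediate early factor, at 594 against 2597 CPM (-2.13), the nuclear receptor gene Nr4a1 at 99.8 against 532 CPM (-2.40) and Cebpb, the factor of emergency granulopoiesis, at 467 against 2072 CPM (-2.15). Bach2, a repressor best known from lymphocytes, was at 29.2 against 249 CPM (-3.05).

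Runx3, the gene floxed in the study, was detected in 18 of 104 members with 35 UMIs in all, or 22.7 CPM (interval 15.8 to 31.5), and 62.9% of these were in 5 cells, with no more than 9 in any cell. By group it was at 24.6, 2.13, 44.4 and 27.9 CPM in primary-granule, cycling, no-limit and tertiary-granule cells, groups that are defined below. It had UMIs in 35.7% of mature neutrophils and 46.5% of the other kept cells, at 202 CPM in the latter, so free RNA in members cannot be told apart from expression. Mature neutrophils held 146 CPM in the library labelled Runx3 and 107 CPM in the library labelled Runx3_fl, so the log2 ratio of members was -2.64 and -2.19. A 3′ tag outside the deleted exons would not show the deletion, so these levels do not check the genotype. Runx1, the paralogue that acts in early hematopoiesis, was at 458 against 1209 CPM (-1.40), Runx2 at 67.4 against 105 CPM (-0.64) and Cbfb, the partner subunit, at 94.6 against 72.0 CPM (0.39). Lyz2, whose promoter drove Cre, was found in 98 members with a median of 36 UMIs, at 3589 against 835 CPM (2.10).

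Glycolysis and mitochondrial genes differed little as a list, with a median log2 ratio of 0.14 over 18 genes. Of these 4 were higher and 3 lower, against 15.6% and 33.1% of all 3871 genes. The 4 were the glycolytic enzymes Pgk1 (1.24), Pgam1 (1.23), Eno1 (1.22) and Aldoa (1.15). The 3 were the glucose transporter gene Slc2a1 (-2.46), the hypoxia-inducible factor gene Hif1a (-1.60) and the hexokinase gene Hk2 (-1.01). Of 75 ribosomal protein genes 0 were higher and 1 lower, and they took 5.16% of UMIs in members and 6.36% in mature neutrophils.

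The members differed strongly among themselves. They were placed in groups by limits chosen after the data were seen. A primary-granule group of 13 cells had at least 0.1% of UMIs in Elane, Mpo, Prtn3 and Ctsg, a cycling group of 23 further cells had at least 0.1% in the G2 and M phase list, and a tertiary-granule group of 34 had at least 0.5% in Retnlg and Mmp8, each with at least 3 UMIs. The other 34 cells passed no limit, and 14 of these were among the 18 members under 2000 UMIs, so shallowness and absence could not be told apart for them. Of the 13 primary-granule cells 10 were also past the cycling limit. No cell was past both the cycling and the tertiary limit, and none was past both the primary and the tertiary limit. Within 1.5 times of a limit lay 2, 7 and 5 cells of the respective measures. Genes that set the limits are a description of the groups, and so is every other gene, since the groups are parts of the same 104 cells of 1 library.

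**Figure D3:**
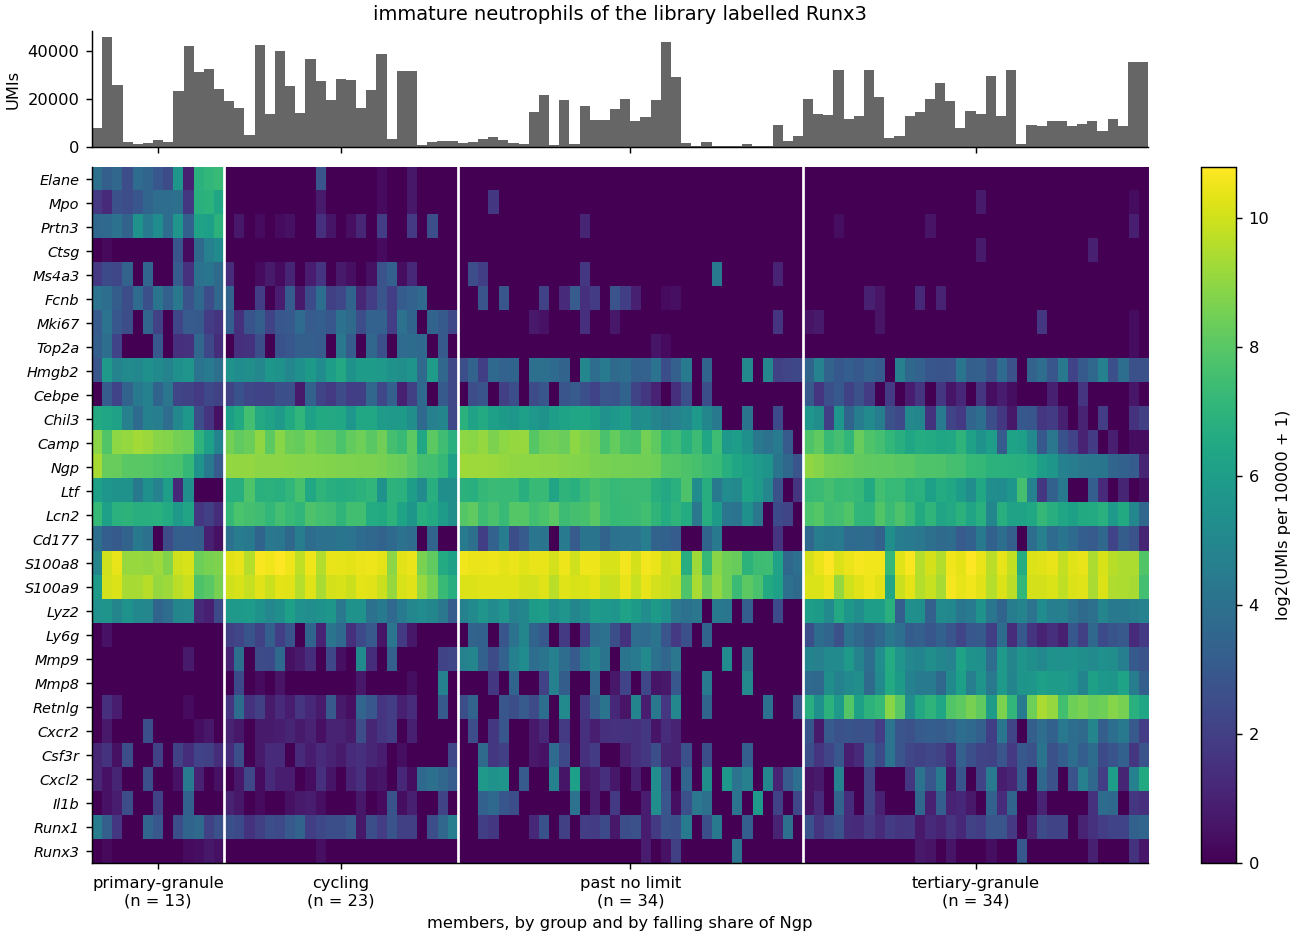
Level of 29 genes (rows) in each of the 104 members (columns) as log2 of UMIs per 10000 plus 1, with members ordered in the groups primary-granule, cycling, past no limit and tertiary-granule, and bars for total UMIs per cell. Ngp has UMIs in all 104 members, Camp in 101 and Ltf in 96, at low levels in some. Elane and Mpo fill the 13 primary-granule cells, and Retnlg and Mmp8 fill the 34 tertiary-granule cells.

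Primary-granule cells held the transcripts of the earliest stage. Elane, a gene by which they were chosen, was at 5769.7 CPM (interval 5472 to 6079), against 42.6 CPM in cycling cells and 0 UMIs in the other groups. It had UMIs in 13 of 13 cells, but from 1 to 460 per cell. Since 5 cells held 94.9% of the Elane UMIs of all members, its level is that of few cells, and the interval does not cover this spread. Ctsg, at 895 CPM, came from 6 of the 13 cells. Ms4a3 was at 805 CPM in this group, 111 in the cycling group, 27.3 in the group past no limit and 0 in the tertiary-granule group, and Fcnb ran in the same order at 1043, 520, 133 and 16.7 CPM. Gfi1, a repressor needed for granulocyte commitment, was at 90.3, 27.7, 10.2 and 3.72 CPM, and the intervals of the last 3 overlapped with their neighbours. Ly6g was at 8.21 CPM (0.995 to 29.7), with UMIs in 1 of 13 cells, and Mmp9 at 12.3 CPM. The cells with most Elane thus held little Ly6g.

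Cycling cells held the highest Ngp, Camp and Chil3 of the groups, but not the highest level of every secondary granule gene. Ngp was at 42196 CPM against 17810 in primary-granule cells, 34472 in cells past no limit and 17925 in tertiary-granule cells. In the same order, Camp was at 32684 CPM against 25649, 25247 and 9438 CPM, and Chil3 at 7492 CPM against 3987, 4449 and 1411 CPM. Ltf was higher in cells past no limit (12895 against 10744 CPM), and Lcn2 was at 15032 CPM there against 14814 CPM, with intervals that overlapped. Mki67 was at 899.8 CPM (816 to 990) in cycling cells and 735 CPM (631 to 851) in primary-granule cells, whose intervals overlapped, and at 11.2 CPM in tertiary-granule cells. The S phase list, which set no limit, was highest in primary-granule cells at 3856 CPM, then 1612 CPM in cycling cells and 130.1 CPM in tertiary-granule cells. Cebpe did not differ beyond its intervals between these first groups, 468 CPM (386 to 562) and 446 CPM (387 to 510), and was 167 CPM (135 to 206) in tertiary-granule cells. Il1b was at 40.5 CPM in cycling cells, below all other groups.

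Tertiary-granule cells held the transcripts of later stages. Their Ngp, which the rule required, ranged down to 4 UMIs in a cell of 35136 UMIs, and 4 of the 34 held 0 UMIs of Ltf. Such cells met the rule without being rich in Ngp or Ltf, so the name granule-rich does not hold for these genes in them. Retnlg was at 18446 CPM and Mmp8 at 3113 CPM, by which they were chosen, and Mmp9 was at 3041 CPM against 392 CPM in cycling cells. Cxcr2, which set no limit, was at 792 CPM (718 to 871) with UMIs in 33 of 34 cells, against 104 CPM in cycling and 28.7 CPM in primary-granule cells. Csf3r was at 520 CPM (461 to 585) against 107 and 218 CPM. Summed Cxcr2 was lower in the mature class than in this group, although the mature class was picked for it. Not all cells of the mature class were shown to be neutrophils. Over all members Cxcr2 also ranked with Retnlg, by which this group was chosen (Spearman's rho 0.81). The mature class held Retnlg at 1038 CPM, and its Csf3r was higher than in this group. Ltf was at 7464.5 CPM, below cycling cells at 10744 CPM and above primary-granule cells at 2501 CPM. Stfa2l1, a stefin gene, was at 857 CPM against 17.1 CPM in cycling cells. Junb was at 1217 CPM against 119 CPM, and the inflammatory mediator list summed to 5310.3 CPM against 665 CPM.

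**Figure D4:**
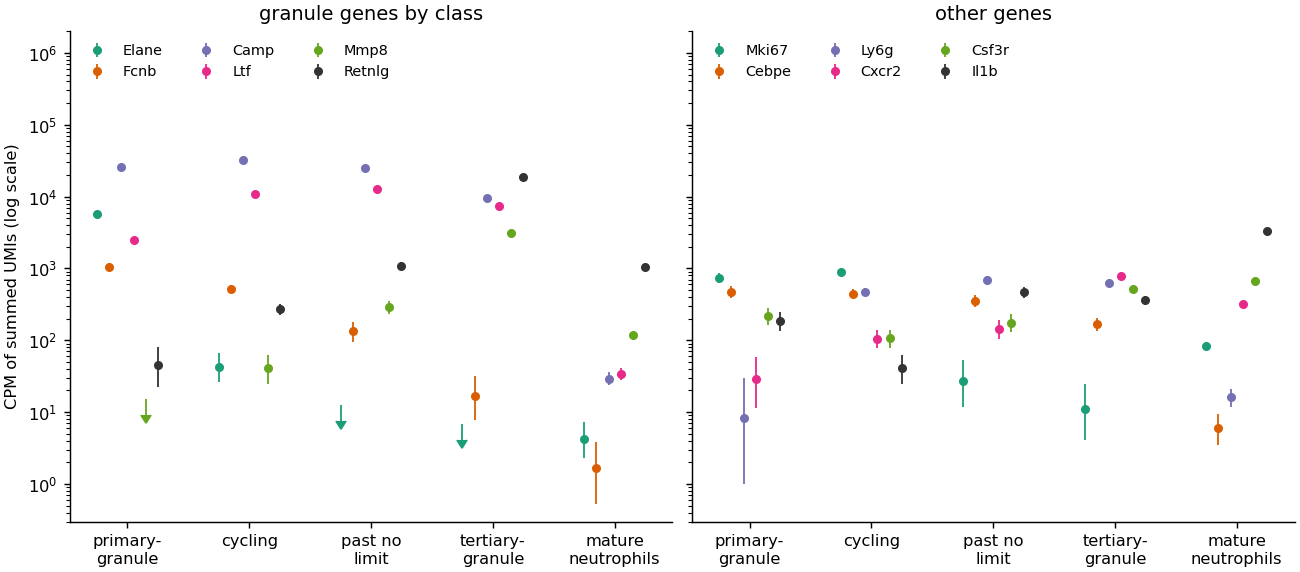
CPM of summed UMIs (vertical, log scale) with exact 95% Poisson intervals for 6 granule genes and 6 other genes in the 4 groups of members and in mature neutrophils of the library labelled Runx3, with arrows for the upper limit where a group held 0 UMIs. Elane and Fcnb fall from left to right among the members, Retnlg and Mmp8 rise, and mature neutrophils stand apart by low Camp and Ltf and by Il1b at 3300.0 CPM.

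Across all 104 members most of the genes compared ranked in 2 blocs. Spearman's rho of the share of UMIs was 0.82 for Ngp and Camp, 0.82 for Ngp and Lcn2, 0.87 for Ngp and Chil3 and 0.75 for Ngp and Ltf. In the other bloc it was 0.80 for Retnlg and Mmp8 and 0.81 for Retnlg and Cxcr2. Between blocs Ngp and Retnlg had a rho of -0.18. The G2 and M phase list had a rho of -0.52 with Retnlg but only 0.14 with Ngp. S100a8, like Ngp a gene of the rule, had 0.54 with Ngp and 0.33 with Retnlg. Over the 86 members with at least 2000 UMIs, Ngp and Retnlg had a rho of -0.31. The G2 and M phase list there had -0.57 with Retnlg and 0.23 with Ngp. S100a8 there had 0.49 with Ngp and only 0.19 with Retnlg. Ngp had 0.80 with Camp, 0.79 with Lcn2, 0.87 with Chil3 and 0.78 with Ltf. The cells share 1 library, and each share is out of the same total, so these are descriptions. Divided by their Ngp share alone, the lowest 35 cells held Retnlg at 15382 CPM and the highest 34 at 962 CPM.

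Markers of other cell types were looked for in the members. Of 15 macrophage and monocyte genes, 12 had UMIs and the 3 C1q genes of the rule had 0. The list summed to 1504 CPM against 4106 CPM in mature neutrophils, of which Ly6c2, also a gene of immature granulocytes, made up 1269 CPM, and it ranged from 0 to 159 UMIs per member. Of 11 dendritic cell genes 10 had UMIs and Siglech had 0, summing to 669 against 5657 CPM, with a median of 3 and a highest value of 252 UMIs per member. Of 14 T and NK cell genes 5 were at 0 (Cd3e, Cd3g, Cd4, Cd8a and Cd8b1), and the list summed to 122 CPM, led by Nkg7 at 76.5 CPM. Of 11 B and plasma cell genes only Cd79a was at 0, and the list summed to 444 CPM, led by Igkc at 268 CPM, with UMIs in 94.2% of members and 95.1% of the other kept cells. The eosinophil, mast cell and basophil, erythroid, and epithelial and stromal lists summed to 34.3, 11.01, 9.07 and 77.7 CPM, and of 8 progenitor genes Cd34, Gata1 and Mecom were at 0.

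The macrophage, dendritic cell and B cell lists moved with the comparison, with higher sums in mature neutrophils, while the eosinophil list was at 34.3 against 26.6 CPM and the mast cell and basophil list at 11.01 against 11.8 CPM. Nkg7 was higher in members (2.92), and lower (-1.16) against the mature neutrophils of the library labelled Runx3_fl. Mature cells were not held to the limits of 0 UMIs, and 197 of 353 would have met them. Against those 197 alone, 16 of 17 secondary granule genes were higher and 19 of 20 inflammatory mediators and 13 of 13 interferon genes were lower. Dendritic cell markers such as H2-Ab1 were at 224 CPM in members and 2018 CPM in mature neutrophils. The part of these cells in the remaining differences was not tested. Xist was at 0 UMIs in 104 members, which allows up to 3.48% of cells with a UMI, and Ddx3y, a Y-linked gene, was found in 45.2%. In the library labelled Runx3_fl 30.6% of the other kept cells held Xist UMIs, although the animals were described as male.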

How the data were processed

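Colon lamina propria cells were separated on a Percoll gradient, cleared of dead cells with 7-AAD, sorted, and made into 10x Genomics 3′ libraries (version 3 chemistry). The deposited files hold UMI counts per gene and cell, which were not normalized. Per the file headers they came from Cell Ranger 7.1.0. The submitters' processing notes name Seurat 4 and mm10. Whether intronic reads were counted is not given in the sources used here, and this version counts them by default, so genes that overlap on 1 strand may share reads.

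Groups came from the sample titles. Cells with 200 to 6000 genes and at most 15% of UMIs from mt- genes were kept, as in the study. The members, gene lists and comparison were chosen with earlier results of these data known. UMIs were summed per class and scaled to a total of 1000000 (CPM), with exact Poisson intervals. Shares had Clopper-Pearson intervals, both at 95%. Log2 ratios used a pseudocount of 1 CPM, which understates changes of low genes, and covered genes at 50 CPM or more and in at least 10% of cells of either class. A gene counted as apart at a log2 ratio of 1 in size. Genes of the fixed lists at 50 CPM or more in either class could be named, as could the 12 largest ratios in each direction outside the rule. Ctsg, Xist, Gfi1 and marker genes at 0 were named as members of the lists although they did not pass the filter. No gene was tested, since cells are not replicates. Alternatives changed the limits of the rule, the filters, the pseudocount, the scaling, the depth and the mature cells. The computation of ratios was tested on simulated data.

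Of 32285 gene IDs 32158 were in GENCODE M21. The symbols BC100530, Clec7a and Mx1 of the lists were not matched. Promoters were matched by symbol to RefSeq. Figures were drawn with matplotlib 3.10.9 and values computed with pandas 2.3.3, scipy 1.17.1 and numpy 2.4.6 under Python 3.11.15.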

Additional observations from a re-analysis of the deposited data

How the results depend on the processing

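The share of immature neutrophils in the library labelled Runx3 was 1.27% and became 1.58% with cells thinned to 1000 UMIs (961 shallower cells left out), 0.980% with more lineage genes left out and 1.92% with up to 2 UMIs of C1q, Cd3e and Cd79a allowed. In the library labelled Runx3_fl it became 0 with an Ngp minimum of 5 UMIs, with thinning to 1000 UMIs, and with Ngp at 1 in 1000 UMIs. The counts of 603 higher and 1283 lower genes became 1201 and 2044 with the filter at 10 CPM and 1496 and 3924 with no filter other than 10 UMIs, since more genes were counted. The higher genes became 937 and the lower 939 with the rule genes, S100a9, Lcn2 and haemoglobin genes out of the totals. Against mature neutrophils of the library labelled Runx3_fl, 3 list genes reversed: Ets1 became -0.0441, Id1 0.0220 and Nkg7 -1.16, and the cause was not tested. Of 182 list and named genes past the limit, 141 stayed past it on the same side under all 12 alternatives. Of the 24 genes with the largest ratios 23 did, and the exception was Elane, at 0.62 with more lineage genes left out. The alternatives with a depth of 2000 UMIs, with mature cells held to 0 UMIs of C1q, Cd3e and Cd79a, and with up to 2 such UMIs in members were chosen after the data were seen. No paired analysis was possible because each group had 1 library, and for the same reason no replicate could be left out. Members under 2000 UMIs limit what can be said of genes at 0 in them.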
